A study of Mus musculus with 9 samples.

Results

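The ephrin-A ligand genes Efna1, Efna2, Efna3, Efna4 and Efna5 were examined for TWIST1 occupancy in a ChIP-seq series of mouse embryoid bodies. They are 5 of the 21887 protein-coding genes on chromosomes 1 to 19, X and Y, and were chosen by name. A peak was given to a gene when its summit lay inside the gene body or, outside genes, when that gene was the nearest within 100 kb (mm10). ChIP-seq recovers the DNA bound by a protein with an antibody and sequences it, and a peak is a stretch where fragments pile up above the local background. The overexpressing cells (Twist1-OE) were Twist1-/- embryonic stem cells of the A2loxcre line that carried a doxycycline-inducible Flag-Twist1. The control cells (Twist1-KO) were Twist1-/- cells without the inducible cassette. Both were differentiated for 3 days and received doxycycline for 16 h, and both lacked the endogenous factor, so OE shows induced and not normal TWIST1 levels. Peak lists of 4 OE ChIP, 2 KO ChIP (numbered 2 and 3) and 1 KO input library were analysed, and the 2 OE input libraries were not analysed here. The labels call the cells embryoid bodies of strain C57BL/6, the design text calls them neuroepithelium, and whether a line was a single clone is not given in the sources used here. A peak list holds no expression, so the cell type could not be checked against its markers. Bulk chromatin does not separate weak occupancy in many cells from strong occupancy in few.

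Ephrin-A ligands are held on the cell surface by a lipid (GPI) anchor and mostly bind EphA receptor tyrosine kinases on touching cells. Signals run into both cells, usually end in repulsion or segregation, and are best known from the guidance of axons, from boundaries between tissues and from neural crest migration. TWIST1 is a basic helix-loop-helix factor that binds E-boxes, short sites spelled CANNTG. In mouse coronal sutures, where Twist1 keeps neural crest and mesoderm cells apart, altered ephrin-A2, ephrin-A4 and EphA4 have been described in heterozygous Twist1 mutants.

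The libraries differed in background pileup and in the length of their peak lists, and a peak list does not give the read depth itself. The background pileup recovered from the authors' fold and p-value, which rises with read depth, was 1.00 fragments in OE library 1, 5.38 in OE library 2, 5.29 in OE library 3 and 1.20 in OE library 4. The KO libraries had 4.73 and 5.09 fragments, and the KO input 6.46. The OE lists held 22308, 106750, 87385 and 14078 peaks on the main chromosomes, against 94 and 62 in the KO lists and 1642 in the input list. OE libraries 1 and 4 therefore had a lower background and shorter lists than OE libraries 2 and 3, and counts are given per library for that reason. Twist1 itself had a peak in every OE library and in no KO or input library, but the cassette carries Twist1 sequence too.

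Peaks at ephrin-A genes were listed in the OE libraries alone. OE libraries 1 to 4 held 9, 43, 34 and 5 peaks at the 5 genes, whereas KO libraries 2 and 3 and the KO input held 0 each. The mean was 22.8 ± 18.6 peaks in OE libraries (SD, n = 4) and 0 ± 0 in KO libraries (SD, n = 2). The groups did not overlap, and the exact two-sided permutation test of log2(peak count + 1) over all 15 splits gave p = 0.0667. That is the smallest p this design allows, so the test cannot pass 0.05. KO libraries listed a peak at only 0.21% and 0.0959% of all genes and the input at 5.29%, so an empty list at 5 genes is the usual state of these lists. At the genome-wide background the lowest listed p-value asked for a fold of 3.66 (KO library 2) or 3.61 (KO library 3). Of the ephrin-A peaks, 31 of 43 in OE library 2 and 30 of 34 in OE library 3 exceeded the higher of these levels. These levels apply at the genome-wide background only, since the median fold of the listed KO peaks was lower, at 3.51 in KO library 2 and 2.88 in KO library 3. At a like background, OE libraries 2 and 3 asked for folds of only 2.51 and 2.54, and the source of this difference was not tested. Enrichment in KO cells that was not listed cannot be read from these files.

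**Figure D1:**
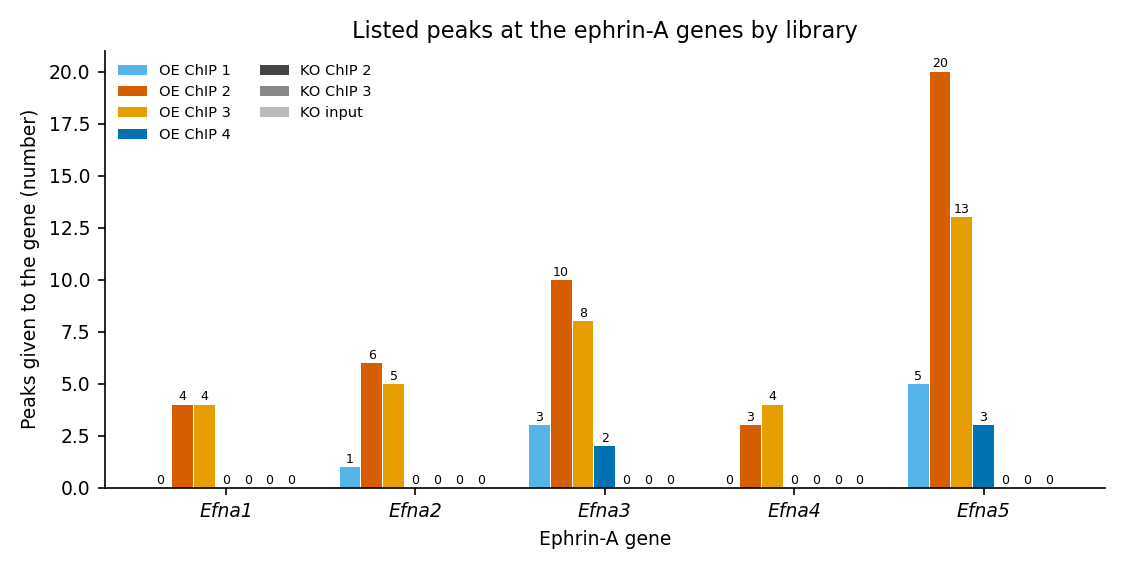
Number of listed peaks given to each ephrin-A gene (y axis) in each library (bars, with the count above each). Efna5 has most, 20 in OE library 2, Efna1 and Efna4 have none in OE libraries 1 and 4, and the KO ChIP and KO input libraries have 0 at all 5 genes.

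The 5 genes fell into an order of occupancy with Efna5 and Efna3 ahead. OE library 1 listed a peak at 3 of the 5 genes (47.3% of all genes) and OE library 4 at 2 (37.4%). OE libraries 2 and 3 listed peaks at all 5, where 80.6% and 77.5% of all genes also had at least 1. Only Efna3 and Efna5 had a peak in every OE library, as did 35.1% of all genes. Merged over the OE libraries, the peaks formed 44 regions, of which none overlapped a KO ChIP or KO input peak. Of these, 12 regions were listed in 1 OE library, 25 in 2, 3 in 3 and 4 in all 4. Every one of the 25 was listed in OE libraries 2 and 3, which have the higher background. The KO ChIP lists held only 94 and 62 peaks over the genome and the input list 1642, so little overlap was possible anywhere. Neither the overlap nor the split by library is given here for all merged regions, so neither is a result about the family. A region supported by all 4 OE libraries and by no KO or input peak is called reproducible below. There were 2 at Efna5, 2 at Efna3 and 0 at Efna1, Efna2 and Efna4, so 2 of 5 ephrin-A genes had such a region, against 30.3% of all genes. A share of 2 in 5 genes is near that background and is no result about the family.

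Efna5, which encodes ephrin-A5, a repulsive cue for retinal axons, carried the strongest site of the family. The gene is 278.4 kb long on the minus strand of chromosome 17 (62602957 to 62881317), and the site lies inside it, at chr17:62728274-62731022, 151.4 kb downstream of the annotated start. OE libraries 1 to 4 gave it fold enrichments of 92.0, 426, 361 and 73.6, with 187, 2718, 2270 and 161 fragments at the summit. All 4 values lay far above any other ephrin-A peak in the same library, and the next highest were 27.9, 11.0, 13.2 and 14.5. The fold is the authors' caller's own value, and it differs between libraries of unlike background. Within its own list the site exceeded the fold of 98.7%, 99.9%, 99.9% and 98.4% of peaks, and by the mean of these it stood at position 155 among the 10375 reproducible regions. The summits lay at 62729914, 62729903, 62729907 and 62729903, a spread of 11 bp, against a median spread of 87 bp over all reproducible regions and 60 bp over those off promoter windows. The peak was 2714 and 2682 bp wide in OE libraries 2 and 3 and 1132 and 1028 bp wide in OE libraries 1 and 4. No noncoding RefSeq gene covers this summit, exons and introns were not analysed here, and the bases of the site are not printed because no genome sequence was used.

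The other reproducible Efna5 region lay 1667 bp upstream of the start (chr17:62882686-62883708). OE libraries 1 to 4 listed it with folds of 27.9, 5.96, 7.95 and 13.2, a mean of 13.8 ± 9.94 (SD, n = 4). Here OE libraries 1 and 4 were above OE libraries 2 and 3, unlike at the site inside the gene. The whole lists had the same order, with median folds of 9.48, 5.02, 5.24 and 9.53 in OE libraries 1 to 4. The upstream region ranked above 88.4%, 60.3%, 73.6% and 65.9% of the peaks of the same lists. Nearer the start, OE library 1 listed a peak 256 bp upstream with a fold of 12.5 and another 427 bp downstream with 15.0. OE library 4 listed a peak 439 bp downstream with 9.53, OE library 2 a peak 128 bp downstream with 3.29, and OE library 3 none within that stretch. OE library 1 alone thus had a peak on the promoter window of Efna5, defined here as 250 bases before to 50 bases after the start. Elsewhere the Efna5 stretch held 16 further regions that only OE libraries 2 and 3 supported, 11 of them in both, with folds up to 11.0. They included sites 27.9 kb and 223.1 kb inside the gene, where OE library 2 gave 11.0 and 8.78 and OE library 3 gave 8.58 and 6.67. A distant region 59.7 kb upstream had folds of 7.21 and 6.66. Of the protein-coding neighbours of Efna5, Nudt12 had 1 reproducible region and Fbxl17 had 3.

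**Figure D2:**
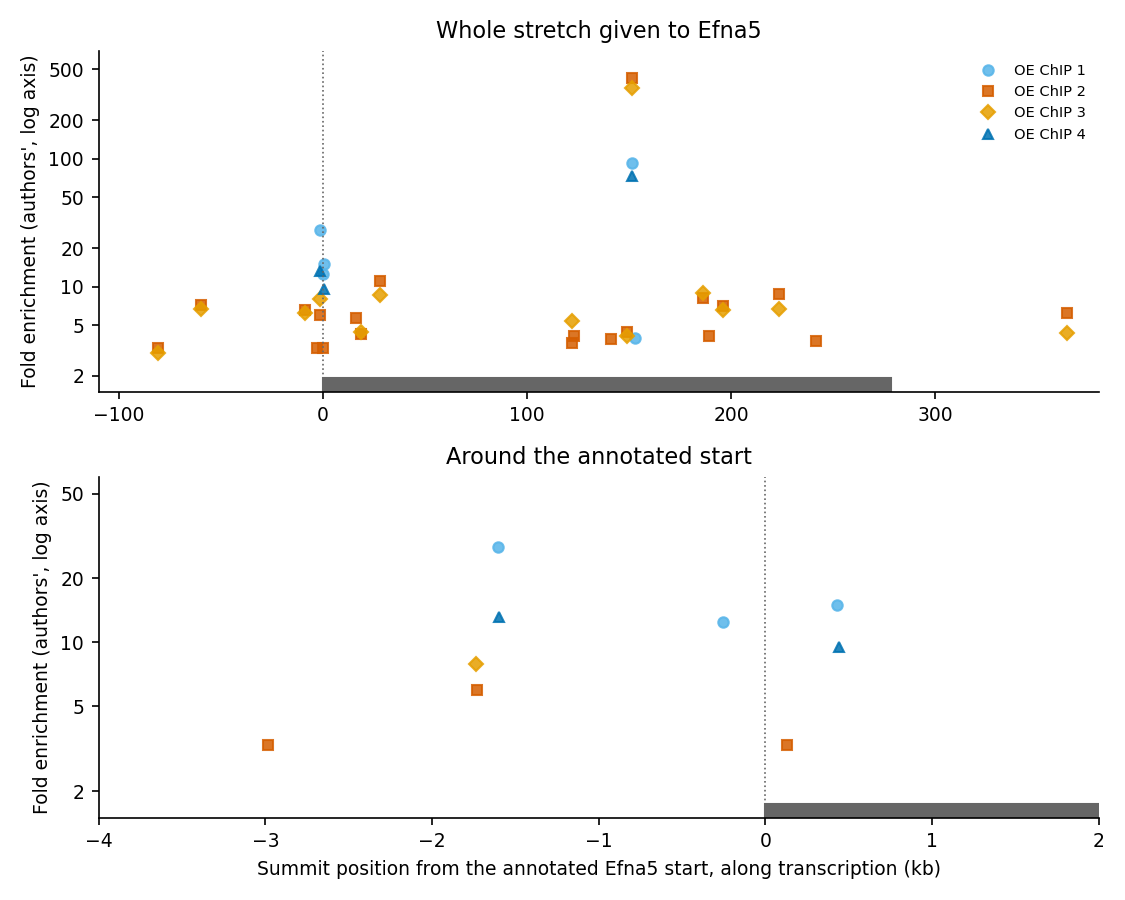
Summit positions of all Efna5 peaks in the OE libraries (x axis, kb from the annotated start along transcription) against the authors' fold enrichment (y axis, log scale), with the gene body as a grey bar and the stretch around the start enlarged below. The site 151.4 kb into the gene stands alone at 73.6 to 426, and around the start OE libraries 1 and 4 reach 9.53 to 27.9.

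The width of Efna5 has to be set beside its number of peaks. The stretch of genome that would be given to it spans 461 kb, against 26.0 kb for Efna1, 31.0 kb each for Efna2 and Efna3 and 10.5 kb for Efna4. In OE libraries 1 to 4 the gene had 1.08, 4.34, 2.82 and 0.65 peaks per 100 kb of this stretch, against 1.05, 5.01, 4.16 and 0.67 over the genome. It was thus below the genome in OE libraries 2 and 3 and close to it in OE libraries 1 and 4. Efna5 led the family in number of peaks and not in density. Per 100 kb, OE library 2 listed 15.4 peaks at Efna1, 19.4 at Efna2, 32.3 at Efna3 and 28.6 at Efna4, and OE library 3 listed 15.4, 16.1, 25.8 and 38.1. These 4 genes are short and lie among close neighbours, where gene ends are dense. The part of this in their peaks per 100 kb was not tested. Reproducible regions numbered 0.43 per 100 kb at Efna5 and 6.45 at Efna3, against 0.492 over the genome.

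Efna3, which encodes ephrin-A3, a ligand described in neurons and astrocytes, was the member with a reproducible region on its promoter. The gene lies on the minus strand of chromosome 3 (89313899 to 89322939). The promoter region, chr3:89322597-89323518, was listed by OE libraries 1 to 4 with folds of 9.48, 8.46, 6.52 and 14.5, and with 18, 53, 40 and 31 fragments at the summit. It stood mid-list, above 49.2%, 76.7%, 64.3% and 70.8% of the peaks of each library. Of all promoter windows, 12.8% had a peak in every OE library. The other reproducible region lay inside the gene, 3.8 kb downstream of the start (chr3:89317886-89319988), with folds of 18.5, 9.56, 13.2 and 12.7. RefSeq also places a long noncoding RNA gene, Gm15998 (89316746 to 89320240), over that summit, so the region cannot be credited to Efna3 alone. A further region 10.5 kb downstream of the start, beyond the 3′ end of Efna3, was listed in OE libraries 1, 2 and 3 with folds of 7.11, 10.3 and 8.10 and lay in another noncoding gene, Gm34014. The remaining 5 Efna3 regions were listed in OE libraries 2 and 3, with Efna3 folds no higher than 7.52 in OE library 2 and 9.22 in OE library 3.

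At 3 of the 4 reproducible regions, the summits of OE libraries 1 and 4 lay together and apart from those of OE libraries 2 and 3. At the Efna3 promoter the summit lay 72 and 80 bp downstream of the start in OE libraries 1 and 4, and 237 and 233 bp upstream of it in OE libraries 2 and 3. Libraries of like background differed by 8 and 4 bp there, while the spread over all 4 was 317 bp, near the median of 304 bp for reproducible regions on promoter windows. Inside Efna3 the summits lay 3229 and 3209 bp downstream in OE libraries 1 and 4 and 3813 and 3807 bp downstream in OE libraries 2 and 3, a spread of 604 bp. Upstream of Efna5 they lay 1607 and 1598 bp from the start in OE libraries 1 and 4 and 1728 and 1736 bp from it in OE libraries 2 and 3. Only the site deep inside Efna5 kept all 4 summits together. Over all reproducible regions, 34.2% showed such a separation, in which both gaps within a pair were smaller than every gap between pairs, and the share was 53.4% among those on promoter windows. The part of the differing background pileups in these offsets was not tested. When neighbouring summits had to lie within 200 bp, Efna3 had 0 reproducible regions and Efna5 kept 2.

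**Figure D3:**
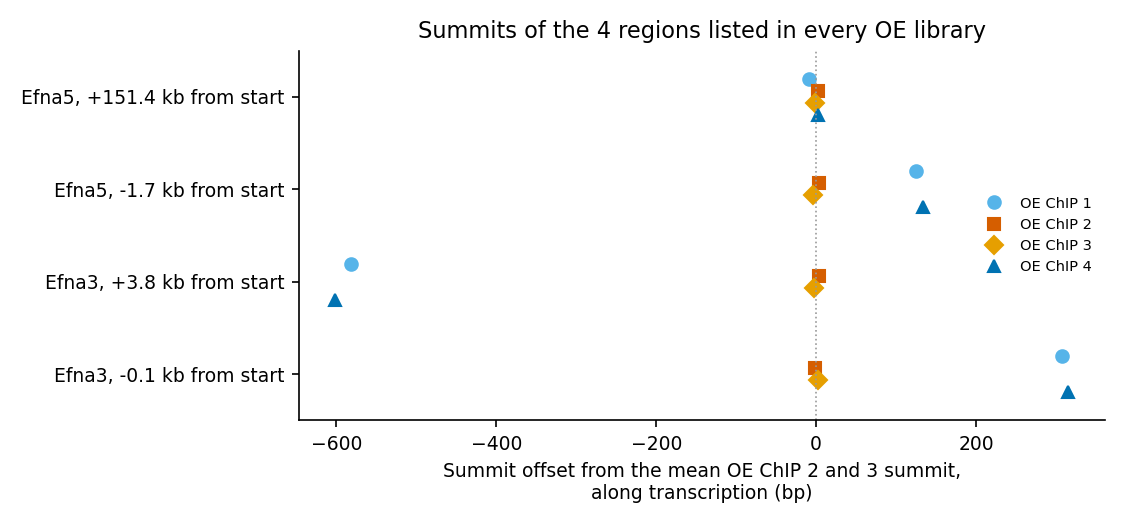
Offset of each OE library's summit (points, bp along transcription) from the mean summit of OE libraries 2 and 3 at the 4 reproducible regions. At Efna5 +151.4 kb all 4 libraries coincide within 11 bp, whereas at the other regions OE libraries 1 and 4 sit together and away from OE libraries 2 and 3.

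The promoters are shown for Efna3, which had a promoter peak in every OE library. Those of Efna5 and Efna2, which lacked one in at least 1 OE library, are set beside it. The letters before the starts can be compared, but not those under every peak, since no Efna5 summit lay within the bases shown. Each run is the 250 bases before the annotated start, read 5′ to 3′ on the gene strand, from RefSeq (GRCm38.p6, the coordinates of mm10). Capitals mark E-boxes, CANNTG, which read the same on either strand.
Efna3, chr3:89322940-89323189, minus strand: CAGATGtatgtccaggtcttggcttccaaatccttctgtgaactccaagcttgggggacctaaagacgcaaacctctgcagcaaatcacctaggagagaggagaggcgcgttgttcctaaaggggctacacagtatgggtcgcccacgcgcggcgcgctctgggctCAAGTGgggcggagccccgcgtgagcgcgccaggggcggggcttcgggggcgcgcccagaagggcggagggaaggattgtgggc
Efna5, chr17:62881318-62881567, minus strand: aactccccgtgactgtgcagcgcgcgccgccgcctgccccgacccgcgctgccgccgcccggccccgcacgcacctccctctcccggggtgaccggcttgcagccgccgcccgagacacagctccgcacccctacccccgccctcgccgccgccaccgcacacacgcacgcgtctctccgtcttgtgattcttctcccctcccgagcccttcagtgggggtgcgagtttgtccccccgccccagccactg
Efna2, chr10:80179232-80179481, plus strand: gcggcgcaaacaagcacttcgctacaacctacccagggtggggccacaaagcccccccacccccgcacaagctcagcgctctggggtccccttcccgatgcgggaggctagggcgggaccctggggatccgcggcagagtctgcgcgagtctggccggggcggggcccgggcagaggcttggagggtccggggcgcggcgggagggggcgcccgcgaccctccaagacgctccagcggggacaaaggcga

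The Efna3 run held 2 E-boxes. CAGATG, a form of CATCTG read on the other strand, begins 250 bp upstream of the start, and CAAGTG begins 84 bp upstream of it. The summits of OE libraries 2 and 3 lay 8 and 12 bp from CAGATG, whereas the peaks of OE libraries 1 and 4 did not reach it. All 4 summits lay 149 to 159 bp from CAAGTG. RefSeq lists 7 starts for the 5 genes, and the 250 bases before the other 6 held no E-box. Of all 32851 such runs 66.2% held at least 1, and 57.6% of the 14300 with a G and C content of at least 54.4%, the lowest among the members. CATCTG in either direction occurred in 14.4% of runs, while CATATG (3.46%), CAGCTG (13.0%), CACCTG in either direction (17.2%), CACGTG (6.02%) and a pair of CANNTG spaced by 5 bases (0.639%) had no match in any ephrin-A run. The runs before the outermost starts contained 64.8% G and C at Efna1, 73.6% at Efna2, 63.6% at Efna3, 54.4% at Efna4 and 74.8% at Efna5, against a median of 52.4%. A match describes these letters and does not show binding, and no match refers to this window only.

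Efna2 encodes ephrin-A2, which with ephrin-A5 patterns the map of retinal axons in the midbrain. Its promoter on the plus strand of chromosome 10 (gene at 80179482 to 80190010) had a peak in 3 OE libraries. The overlapping peaks had folds of 11.0 in OE library 1, 3.60 in OE library 2 and 3.81 in OE library 3, and OE library 4 listed none. Only the summit of OE library 3, 218 bp upstream of the start, lay within the promoter window. The summits of OE library 1, 261 bp downstream of the start, and OE library 2, 380 bp upstream, lay outside it. The strongest Efna2 peak in OE libraries 2 and 3 lay instead just beyond the far end of the gene, at 80190174, with folds of 6.74 and 7.95. The other 6 Efna2 regions had folds of at most 4.23. Efna2 is the member whose call hung on a single library, since without OE library 4 the promoter region was listed in every remaining OE library. The nearest reproducible region to Efna2 lay 11.4 kb away and was given to Cirbp, a gene for a cold-inducible RNA-binding protein, with folds of 14.5, 20.4, 18.9 and 11.8. Of its neighbours, Fam174c had no reproducible region and Pwwp3a had 1.

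Efna1 and Efna4 had peaks in OE libraries 2 and 3 only. Efna1 encodes ephrin-A1, the EphA2 ligand of epithelium and vessels, and lies at 89271730 to 89280951 on the minus strand of chromosome 3. A broad peak over its start, 1690 and 2209 bp wide, reached a fold of 8.93 in OE library 2 and of 10.5 in OE library 3. It held 56 and 65 fragments at the summit, and OE libraries 1 and 4 listed nothing at Efna1. A second Efna1 peak 3.7 kb inside the gene had folds of 7.37 and 5.24. Efna4 encodes ephrin-A4, the ligand noted above at the coronal suture, and lies at 89333393 to 89338028. The peak overlapping its promoter window reached 4.70 in OE library 2, with the summit 940 bp downstream of the start and outside the window. In OE library 3 it reached 5.56, with the summit 2 bp downstream of the start. Another 2 regions, both overlapping the noncoding gene Gm34118, had folds of 4.70 and 4.13, and of 6.39 and 4.61. The summit with 6.39 lay at 89331170, outside Gm34118, which ends at 89331141. The remaining region was listed in OE library 3 alone, with 4.29. All Efna4 folds in both libraries therefore stayed below the strongest Efna1 peak of the same library. The 3 genes share the minus strand within 66.3 kb, and a nearest-gene rule divides their peaks without showing which of them a site serves. Counted together they had 3, 17, 16 and 2 peaks in OE libraries 1 to 4 and 0 in both KO libraries and the KO input. Slc50a1 and Adam15, the protein-coding neighbours on either side, had no reproducible region.

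**Figure D4:**
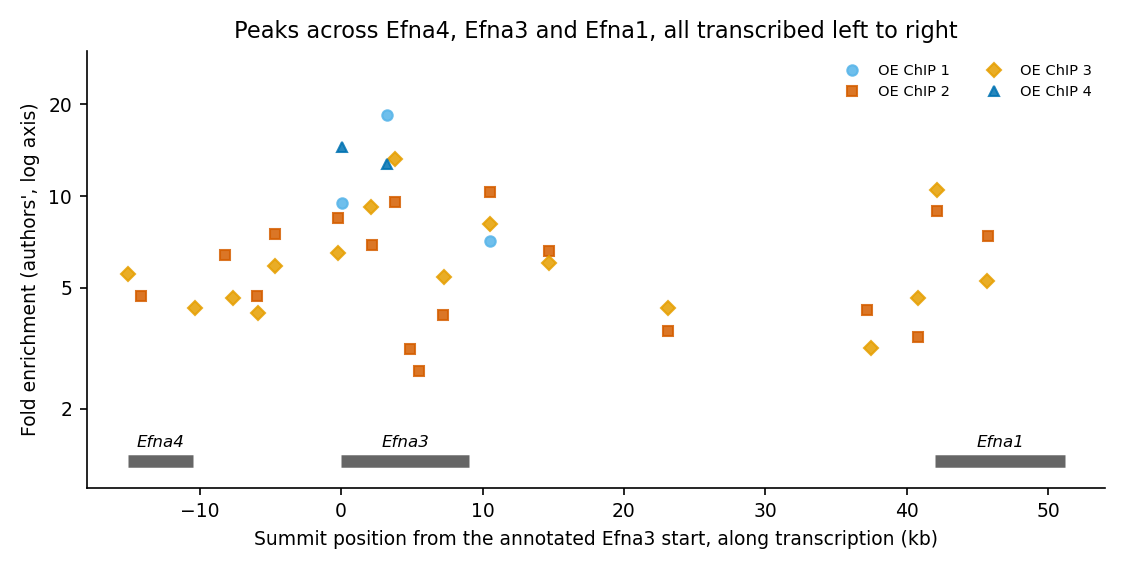
Summit positions (x axis, kb from the annotated Efna3 start along transcription) and the authors' fold enrichment (y axis, log scale) of the OE peaks given to Efna4, Efna3 and Efna1, with gene bodies as grey bars. OE libraries 1 and 4 appear at Efna3 alone, and Efna1 and Efna4 carry peaks of OE libraries 2 and 3, none above 10.5.

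Promoter windows of the family were covered unevenly across libraries. A peak lay on the promoter window of 3 of 5 ephrin-A genes in OE library 1 and of 1 in OE library 4, where 21.7% and 17.4% of all windows had a peak. In OE libraries 2 and 3 the count was 4 of 5, against 49.8% and 51.4%. Efna5 was the member without a promoter peak in OE libraries 2 and 3, although its site inside the gene was the strongest there. No ephrin-A promoter window had a peak in a KO ChIP or KO input library, where 0.00572%, 0% and 2.14% of windows had one.

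The site inside Efna5 had a mean fold of 238 ± 182 (SD, n = 4). Of the 34 other Eph-system genes counted here, only Vav2 had a higher mean in its strongest reproducible region. Of 9 EphA receptor genes, the main partners of ephrin-A ligands, 6 had a reproducible region (66.7%). Over all protein-coding genes the share was 30.3%, and each group count below is to be read beside it. The genes named in each group are the 2 whose strongest peak stood highest within the OE lists on average, which is not an order of fold. Epha3, which also had 1 peak in the KO input list, had a mean fold of 182 ± 64.9, and Epha10 had 14.8 ± 10.0, below the 31.4 of Epha8 and the 17.2 of Epha7. Of 5 EphB receptor genes 3 had one, with 114 ± 41.0 at Ephb2 and 66.2 ± 26.0 at Ephb3. Both ephrin-B ligand genes that had one, Efnb1 and Efnb2, reached 51.7 ± 36.2 and 97.7 ± 79.7, out of 3. Of 17 genes for Eph signalling and ligand shedding 13 had one, with 585 ± 407 at Vav2 and 142 ± 83.5 at Tiam1. The 34 genes had a median of 1 reproducible region and the 5 ephrin-A genes a median of 0, as did all protein-coding genes. The difference between the ephrin-A genes and the others was not tested, and the width of the stretches given to the genes was not balanced.

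Some genes had a profile of strongest peaks like that of a member, measured as the Euclidean distance between percentiles within the 7 lists. For Efna5 these were Iqgap3, Tenm2 and Wdr38, at distances of 0.12, 0.22 and 0.23 percentage points. For Efna3 they were Sult4a1, Gm30698 and Rtn2, at 3.54, 4.55 and 4.64. The measure uses only how high each gene's best peak stood in each list.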

How the data were processed

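Each analysed library came as its own narrowPeak list, without pooling. The submitters' processing notes name MACS2, Picard, BWA and Trimmomatic, and the builds mm10 and GRCm38.p5; settings and the control used in peak calling were not given in the sources used here. Each peak has a fold enrichment (a ratio over local background), −log10 p-values and q-values and a score, all made by the authors' caller, and no listed q-value exceeded 0.01. Folds and ranks describe peaks within a list. OE peaks sharing at least 1 bp were merged into regions, and the median summit placed each region. Gene positions, starts and upstream bases came from RefSeq tables of GRCm38.p6. Summit pileup and background were recovered from fold and p-value, within 0.01 or 0.01% of −log10 p. Counts were compared by exact permutation, with 1 added before log2, and since the labels name no separate cultures, p reflects the spread among libraries only. Genes named beyond the members are the leading 2 of each pathway group, direct neighbours, Twist1, the 3 most alike, and Cirbp, Epha7 and Epha8, chosen after their values were seen. Members, lists and settings were chosen with earlier results of these data known. Procedures were tested on simulated data. Python 3.11.15, numpy 2.4.6, pandas 2.3.3, scipy 1.17.1 and matplotlib 3.10.9 were used.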

Additional observations from a re-analysis of the deposited data

How the results depend on the processing

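The difference in log2(peak count + 1) at the 5 genes, OE minus KO, was 4.12. The KO counts are 0, so no alternative could turn it negative, and its sign says nothing about stability. Its size was 2.04 (exact permutation p = 0.133) with OE lists of equal length and 3.68 to 4.64 with each library left out in turn. Replicate numbers 2 and 3 occur in both groups, and no label says that they mark a shared experiment, so they are taken as names. With the replicate block the difference was 5.29 (exact sign-flip p = 0.5, the smallest that 2 pairs allow). With all KO counts at 0, whether numbers deviate together could not be checked.

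The number of reproducible regions, 4, and of ephrin-A genes with one, 2, depended more on the rules. With equal list lengths both fell to 1, the site inside Efna5. With neighbouring summits within 200 bp they were 2 and 1. When a region counted for every gene within 100 kb they were 9 and 5, and with any 2 OE libraries 32 and 5. With any 3 OE libraries there were 7 regions at 3 genes. Leaving out each OE library gave 4 to 6 regions at 2 to 3 genes; without OE library 4 there were 6 regions at 3 genes, Efna2 included. Restriction to OE libraries 2 and 3 gave 31 regions at 5 genes, and to OE libraries 1 and 4 gave 5 regions at 2 genes; both restrictions were added once the data had been seen. The cause of these changes was not tested. At their background, OE libraries 1 and 4 needed folds of 4.00 and 4.09 for a listed peak, so weaker sites could not be seen there. The strongest peaks of OE libraries 2 and 3 exceeded these folds at Efna1 (8.93 and 10.5), Efna2 (6.74 and 7.95) and Efna4 (6.39 and 5.56). Folds of libraries of unlike background are not on one scale, so this comparison is a description only. It does not show that OE libraries 1 and 4 would have listed these sites. The part of the listing level in the missing calls was not tested.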
